A study of Homo sapiens with 4 samples.

Results

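The AP-1 subunit genes FOS, FOSB, FOSL1, FOSL2, JUN, JUNB and JUND and the immediate early genes EGR1, IER2 and IER3 were followed in a human melanoma line. These are 10 of the 19775 genes that the array annotation names. They were taken as listed, with every probe set annotated to 1 of them, 22 of 54675 in all; each of the 22 names a single gene. No measured value was used as a filter, but the genes were chosen with earlier results of these data known. Of the 10 genes, 8 were above the detection floor described below on all 4 arrays and were tested, FOS was above it on 1 array, and FOSB on none.

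Gene expression was measured in M14, an established melanoma cell line, in 4 groups of 1 array each. The ARHGAP8 line carried FLAG-tagged ARHGAP8, in a variant without exon 5, in the bicistronic plasmid pIRES2 with eGFP, and was measured in 3D and in 2D. The vector line carried the same plasmid without ARHGAP8 and was likewise measured in 3D and in 2D. In 3D the cells were embedded in growth factor-reduced Matrigel, a basement membrane gel, and in 2D they grew on plastic coated with bovine type I collagen and were taken before confluence. All 4 cultures ran for 4 days with serum and G418, and both lines had been selected with G418 and sorted for eGFP. Whether a line was a clone is not stated in the labels, and 1 line per plasmid was measured, so plasmid and line cannot be told apart. With 1 array per group, no value has a replicate error of its own.

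AP-1 is a dimer of leucine zipper proteins. JUN proteins pair with each other or with FOS proteins, and the dimer binds the element TGACTCA. The FOS, JUN and EGR1 genes are classic immediate early genes, switched on within minutes of a stimulus without new protein synthesis, and switched off again quickly. For FOS and EGR1 this runs largely through MAP kinases acting on factors bound at serum response elements. FOSL1, which encodes FRA-1, differs in that its product is kept high by sustained ERK signalling, and in melanoma FRA-1 and JUN are known as markers of dedifferentiated, invasive states.

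The values are signal intensities, scaled to a common mean on the 4 arrays. Signals under 72.3, the median over all probe sets, were set to that floor before log2 was taken, so that a ratio in which 1 array sits at the floor gives only the least difference. Each gene was read from its brightest probe set. The test was an additive fit of plasmid and culture in limma over 13239 genes, with Benjamini-Hochberg adjustment over all of them and a threshold of 0.05. Its 1 residual degree of freedom is the difference of differences, and each standard error (SE) borrows from the variances of genes with similar signal (a moderated SE), so it is not a spread between cultures.

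The cells carried the markers of their label. Of 9 melanoma markers with a probe set of their own, 8 were above the floor on all arrays; PMEL, a melanosome matrix protein gene, was below it on all 4. None of 5 epithelial or 3 leukocyte markers was above the floor on any array, and of 7 fibroblast markers COL1A1, COL1A2 and DCN were above it on all 4, with summed list signals of 616 and 793 in 3D and of 601 and 744 in 2D for the ARHGAP8 and vector lines. Of 4 endothelial markers, PECAM1 was above the floor on all arrays. ARHGAP8 could not be read, since none of its 4 probe sets names it alone and their signals lay between 4.02 and 14.8. The ARHGAP8 3D array stood apart in control probe sets, with a median 18S ribosomal RNA signal of 626 against 27.7 to 49.4 on the other arrays. The ratio of 3' to 5' signal of ACTB, a measure of RNA integrity, reached 1.32 for the ARHGAP8 line and 1.23 for the vector line in 3D, and 1.05 and 1.10 in 2D in that order of lines. The same ratio for GAPDH was nearly flat, at 0.92 and 0.90 in 3D and 0.90 and 0.87 in 2D. The part of these in the results below was not tested.

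**Figure D1:**
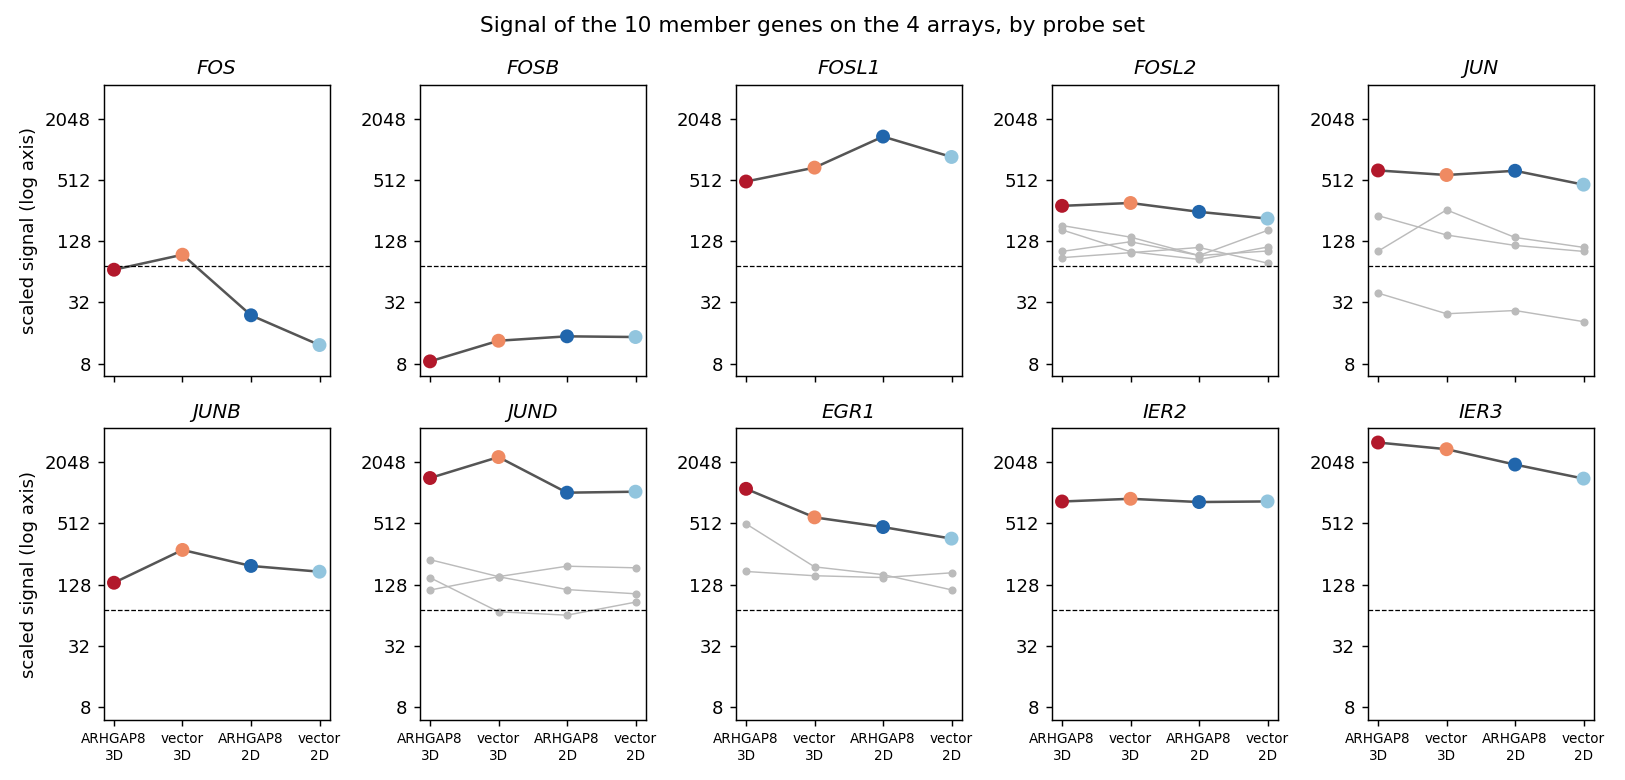
Scaled signal (log axis) of every probe set of the 10 genes on the ARHGAP8 3D, vector 3D, ARHGAP8 2D and vector 2D arrays; large coloured points are the probe set that represents the gene, small grey points its other probe sets, and the dashed line is the floor of 72.3. EGR1 and IER3 are highest on the 3D arrays, FOSL1 on the 2D arrays, IER2 lies between 831 and 895 on all 4, and FOSB stays below 15 throughout.

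The comparison of 3D with 2D culture asked how growth inside gel changed these genes. EGR1, IER3 and JUND rose in 3D and FOSL1 fell, each in both lines, and the other 4 tested genes did not pass. Among all genes tested, 2.83% rose and 4.15% fell (6.99% either way), against 3 and 1 of the 8. The median log2 difference of the 8 was 0.26, beside 0.03 over all genes tested. Values were higher in 3D in both lines for 6 of the 8, a direction seen in 34.1% of all genes tested, and lower in both for FOSL1, as in 28.9%. Among the 6, JUN and IER2 were nearly level in the ARHGAP8 line, at 0.01 and 0.02. Such shares over all genes, here and between the lines, include genes at the floor on some arrays, whose ratio can be 0. The 8 were above it on all arrays.

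EGR1, a zinc finger transcription factor of the early growth response, gave signals of 1121 and 588 in 3D in the ARHGAP8 and vector lines, against 472 and 363 in 2D. Both 3D arrays lay above both 2D arrays, and the ARHGAP8 array was the higher one in each culture. The rise was 0.97 ± 0.18 log2 (moderated SE, 4 arrays), 1.96-fold, with an adjusted p of 0.00162 in limma. It was 2.38-fold in the ARHGAP8 line, where 1.78% of genes were at least 2-fold higher in 3D, and 1.62-fold in the vector line.

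The probe sets of EGR1 did not all read alike. In a fit on probe sets, 201694_s_at rose by 1.21 ± 0.27 (adjusted p 0.0231 in limma), with signals of 508 and 192 in 3D in the ARHGAP8 and vector lines and 161 and 114 in 2D. The third, 201693_s_at, read 173 and 157 in 3D and 150 and 167 in 2D, a difference of 0.05 that did not pass. The 3 probe sets thus split into a pair that was highest on the ARHGAP8 3D array by a wide margin and a dim one that was flat.

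IER3, an early response gene known for its part in cell survival, read 3201 and 2752 in 3D in the ARHGAP8 and vector lines and 1943 and 1414 in 2D. Again both 3D arrays lay above both 2D arrays. It rose by 0.84 ± 0.17 log2, 1.79-fold (adjusted p 0.00336 in limma), from ratios of 0.72 in the ARHGAP8 line and 0.96 in the vector line. IER3 has 1 probe set, so no second reading exists on these arrays.

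IER2, an early response gene whose product is a nuclear regulator of transcription, was nearly level. Its signals were 842 and 895 in 3D, against 831 and 843 in 2D, in the ARHGAP8 and vector lines. They spanned 0.11 log2 over the 4 arrays, against a median range of 0.51 over all genes tested. The culture difference was 0.05 ± 0.16, short of the threshold (adjusted p 0.898 in limma).

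Among the JUN genes, JUND was the one that passed. JUND, in many cells the most stably expressed JUN family member, read 1433 and 2303 in 3D in the ARHGAP8 and vector lines and 1028 and 1051 in 2D. It rose by 0.81 ± 0.17 log2, 1.75-fold (adjusted p 0.00637 in limma), with 2.19-fold in the vector line, where 1.72% of genes were at least 2-fold higher, and 1.39-fold in the ARHGAP8 line. The call rests on 1 of its 4 probe sets: the others differed by -0.04, 0.27 and 0.40 on average, did not pass, and had signals of at most 225.

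JUN, the founding AP-1 subunit, read 634 and 572 in 3D, against 630 and 460 in 2D, in the ARHGAP8 and vector lines. The groups overlapped, since the ARHGAP8 2D array was above the vector 3D array, and the difference of 0.16 ± 0.17 did not pass (adjusted p 0.640 in limma). That probe set, 201464_x_at, is of the kind whose probes can also match other transcripts. Of the other 3, 213281_at read 228 and 147 in 3D and 116 and 101 in 2D, a difference of 0.75 that did not pass; 201466_s_at read 102 and 260 in 3D and 139 and 111 in 2D, and 201465_s_at was below the floor on all arrays. The JUN probe sets therefore do not give 1 pattern.

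JUNB, which can restrain JUN activity, read 134 and 281 in 3D, against 196 and 172 in 2D, in the ARHGAP8 and vector lines. The vector 3D array was the highest and the ARHGAP8 3D array the lowest, so that the lines went opposite ways, at -0.55 in the ARHGAP8 line and 0.71 in the vector line. The average of 0.08 ± 0.28 did not pass.

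Of the FOS genes, FOSL1 fell. Its signals were 494 and 676 in 3D in the ARHGAP8 and vector lines and 1366 and 861 in 2D, with both 3D arrays below both 2D arrays. It fell by 0.91 ± 0.20 log2, 1.88-fold (adjusted p 0.00786 in limma). In the ARHGAP8 line it was 2.77-fold lower in 3D, where 1.91% of genes were at least 2-fold lower, and in the vector line 1.27-fold lower. FOSL1 has 1 probe set.

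FOSL2, which encodes the related subunit FRA-2, read 285 and 304 in 3D and 248 and 213 in 2D. Both 3D arrays lay above both 2D arrays, but the difference of 0.35 ± 0.22 did not pass (adjusted p 0.373 in limma). Its other 4 probe sets, all dimmer, differed by -0.12, 0.01, 0.41 and 0.72 and did not pass either.

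FOS itself, the prototype immediate early gene, gave 67.0 and 94.1 in 3D in the ARHGAP8 and vector lines and 23.9 and 12.2 in 2D. Only the vector 3D signal was above the floor, so in the vector line FOS was at least 1.30-fold higher in 3D, and no fold is given for the ARHGAP8 line. Signals below the floor have no order, so the other 3 arrays are not ranked. FOSB, its close relative, had 8.40 and 13.4 in 3D and 14.8 and 14.6 in 2D and was not detected above the floor. With every gene kept in the fit, FOS differed by 0.19, short of the threshold (adjusted p 0.777 in limma).

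**Figure D2:**
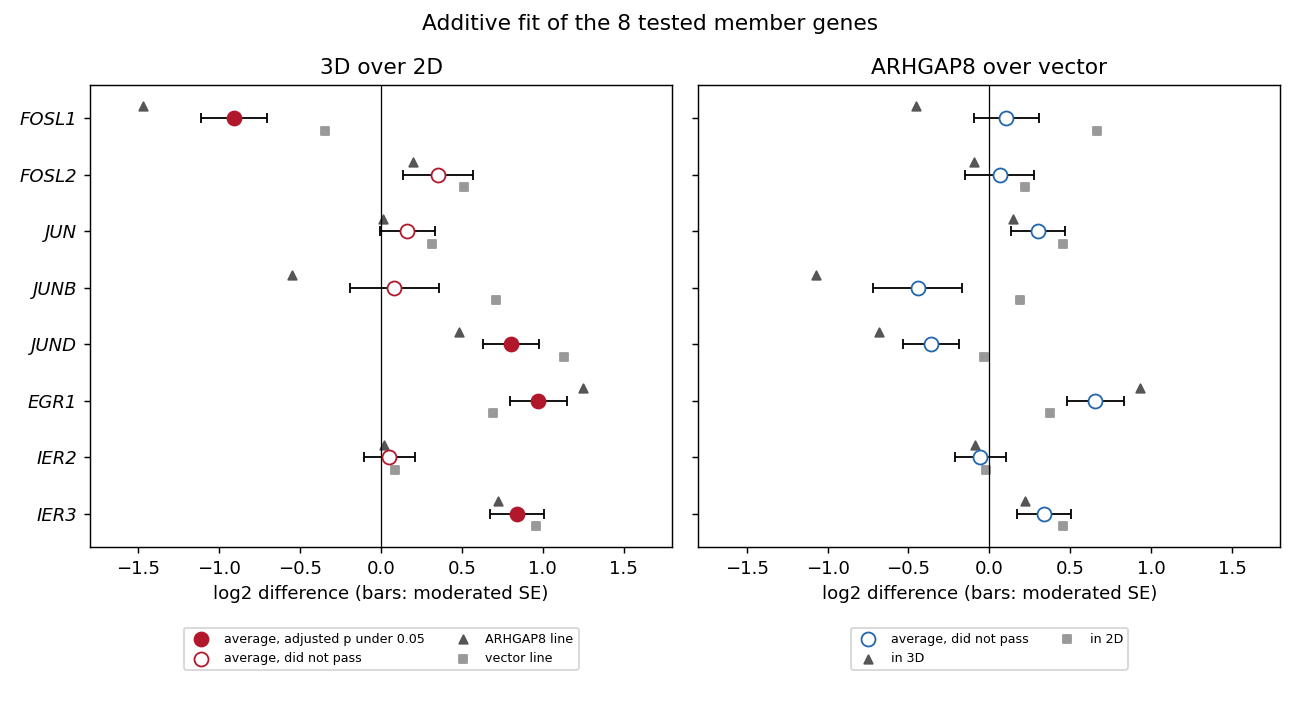
Log2 differences of the 8 tested genes in the additive fit, 3D over 2D at left and ARHGAP8 over vector at right, with bars of 1 moderated SE; filled circles passed an adjusted p of 0.05, triangles and squares are the single-array ratios in the ARHGAP8 and vector lines (left) or in 3D and 2D (right). At left EGR1, IER3 and JUND lie at 0.97, 0.84 and 0.81 and FOSL1 at -0.91; at right no gene passed, and EGR1 is farthest from 0 at 0.65.

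The 4 culture calls depend on the fit. EGR1 and IER3 passed under 7 of the 10 alternatives that keep all arrays, JUND under 6 and FOSL1 under 5, and their directions were the same in all of them. FOSL1 and IER3 have 1 probe set each, so a mean over probe sets cannot change their values. With that mean in place of the brightest probe set, EGR1 read 0.74 and JUND 0.36. In that setting the culture calls over all genes fell from 925 to 37, and all 4 of these calls were lost. They were also lost when plasmid was left out of the model, where the culture calls over all genes fell to 29. With 1 array left out of that smaller model, only the values are given. Without the ARHGAP8 3D array the values were 0.51 for EGR1, 0.73 for IER3, 1.15 for JUND and -0.68 for FOSL1; without the vector 3D array they were 1.44, 0.95, 0.46 and -1.14. Without the ARHGAP8 2D array they were 1.16, 1.07, 0.79 and -0.58, and without the vector 2D array 0.78, 0.61, 0.82 and -1.24.

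**Figure D3:**
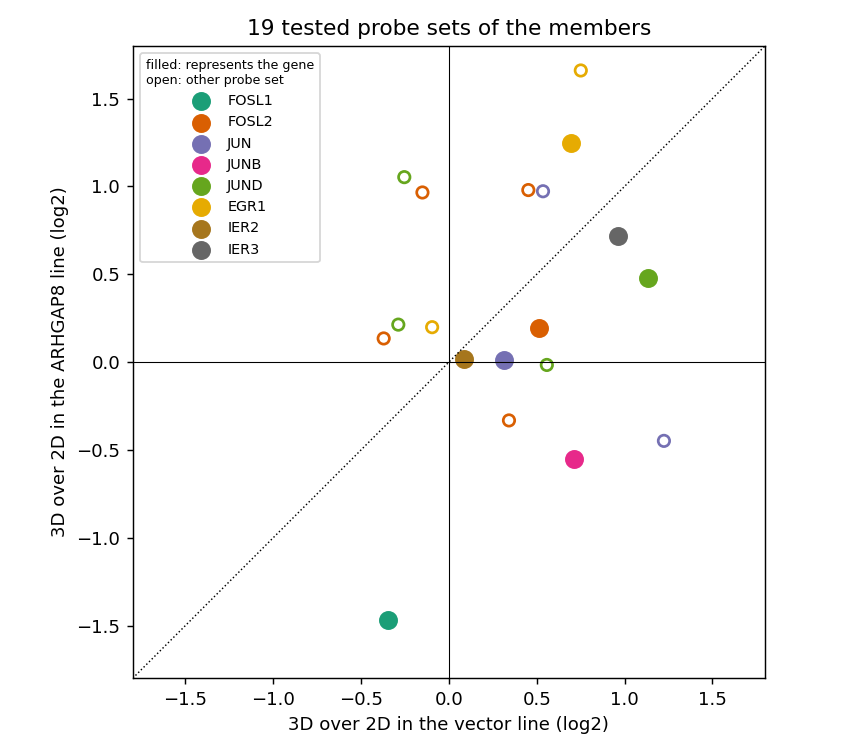
Log2 ratio of 3D over 2D in the vector line (horizontal axis) and in the ARHGAP8 line (vertical axis) for the 19 tested probe sets; filled points represent their gene, open points are other probe sets of it, and the dotted line marks equal ratios. Of the 19, 9 are above 0 on both axes and FOSL1 alone is below 0 on both, and these shares were not counted over all probe sets. The open points of FOSL2, JUN and JUND scatter around their filled ones.

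Over probe sets, 4 of the 19 tested rose in 3D and 1 fell in the fit on probe sets, beside 466 and 535 of all 28651 tested. The member probe sets that passed were the bright ones of EGR1, IER3 and JUND, the second of EGR1, and that of FOSL1. The remaining 14 did not pass. Another 3, 1 each of FOS, FOSB and JUN, were not tested.

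The table of RefSeq promoters used here, on GRCh38.p14, matched 8 of the 10 genes; the promoters of FOSL1 and IER3 were not analysed here. In the 250 bases before each start site, 4 elements were searched on both strands: TGACTCA, bound by AP-1; TGACGTCA, bound by CREB and ATF proteins and some AP-1 dimers; GCGTGGGCG, bound by EGR1; and the CArG box, bound by serum response factor. No match overlapped another. Only exact matches within these 250 bases were sought, so elements farther off or with a changed base would be missed. The promoters of EGR1 and JUND were the 2 that held any match. They are shown with the matches in capitals, as chr5:138465229-138465478 on the plus strand and chr19:18281623-18281872 on the minus strand.
EGR1: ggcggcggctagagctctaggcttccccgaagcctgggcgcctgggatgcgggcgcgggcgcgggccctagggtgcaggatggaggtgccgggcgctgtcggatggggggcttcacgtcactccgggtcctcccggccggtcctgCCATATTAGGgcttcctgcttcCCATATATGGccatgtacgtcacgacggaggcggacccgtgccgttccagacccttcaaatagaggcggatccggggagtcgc
JUND: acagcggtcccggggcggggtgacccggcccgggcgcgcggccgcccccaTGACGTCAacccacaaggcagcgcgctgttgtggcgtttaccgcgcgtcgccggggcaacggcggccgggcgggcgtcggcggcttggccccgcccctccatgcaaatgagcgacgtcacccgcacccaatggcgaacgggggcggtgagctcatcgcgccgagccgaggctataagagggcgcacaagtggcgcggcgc
EGR1 held 2 CArG boxes, at 105 to 96 and at 83 to 74 bases before the start, an element found in 1.16% of 35116 promoters of that length. JUND held 1 TGACGTCA, at 200 to 193 bases before the start, an element found in 1.65%. The elements TGACTCA and GCGTGGGCG, found in 4.2% and 0.72% of all promoters, were in none of the 8 windows. A match is a description of these letters and not a site shown to be bound in these cells.

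The comparison of the lines asked whether the ARHGAP8 line differed from the vector line. None of the 8 tested genes passed in limma, where 0.128% of all genes tested did; 1 of the 8, EGR1, had an unadjusted p under 0.05, as did 8.14% of all genes tested. EGR1 was higher in the ARHGAP8 line by 0.65 ± 0.18 log2, 1.57-fold, without passing (adjusted p 0.163 in limma). With culture left out of the model, that value was 0.03 without the ARHGAP8 3D array, 1.00 without the vector 3D array, 1.28 without the ARHGAP8 2D array and 0.31 without the vector 2D array. Its line ratios were 0.93 in 3D and 0.38 in 2D, and its second probe set, 201694_s_at, read 1.41 and 0.50, while 201693_s_at read 0.14 and -0.15.

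The other values between the lines were small or changed with the culture. IER3 was higher in the ARHGAP8 line by 0.34 ± 0.17 and JUN by 0.30 ± 0.17, each in both cultures. The JUN value is that of 201464_x_at. Its probe set 213281_at read 0.63 in 3D and 0.20 in 2D, but 201466_s_at read -1.35 and 0.32. JUND was lower by 0.36 ± 0.17, with -0.68 in 3D and -0.03 in 2D, and JUNB was at -0.44 ± 0.28, with -1.07 in 3D and 0.19 in 2D. The JUNB signal in 3D was 2.10-fold lower in the ARHGAP8 line, where 1.30% of genes were at least 2-fold lower. FOSL1, FOSL2 and IER2 were at 0.11, 0.06 and -0.05. EGR1, IER3 and JUN, 3 of the 8, had higher values in both cultures and JUND and IER2, 2 of the 8, lower ones, directions held by 25.4% and 26.2% of all genes tested.

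The difference of differences, the line ratio in 3D minus that in 2D, has no test in this design. It exceeded 1 log2 in size for JUNB and FOSL1, 2 of the 8, and for 4.14% of all genes tested. For JUNB it was -1.26. For FOSL1 it was -1.12, from line ratios of -0.45 in 3D and 0.67 in 2D, so FOSL1 was lower in the ARHGAP8 line in gel and higher on plastic. EGR1 had 0.55 in the other direction. Every such value, for these and all other genes, uses all 4 arrays. Among them is the ARHGAP8 3D array with its raised ribosomal RNA signal, whose part was not tested.

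The gene whose signals varied most over the 4 arrays among the 8 was EGR1, with a range of 1.63 log2. Among 11200 other genes above the floor on all 4 arrays, those with the nearest profile were IFI6, GBP2 and TRIM5, at root mean square distances of 0.09, 0.11 and 0.11 log2. IFI6 read 517 and 250 in 3D in the ARHGAP8 and vector lines and 182 and 155 in 2D. With 4 arrays many profiles lie close by, and the likeness is a description.

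Genes around the members were read from 6 lists. Of 14 other AP-1 partners, 5 were tested, 1 rose in 3D and 4 did not pass, with a median of 0.43. ATF3, a stress-induced ATF family factor that pairs with JUN proteins, rose by 0.67 ± 0.19 (adjusted p 0.0395 in limma), with signals of 401 and 457 in 3D, against 277 and 261 in 2D, in the ARHGAP8 and vector lines. None of the 5 passed between the lines.

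Other immediate early genes went both ways. Of 37 listed, 29 were tested, 4 rose and 3 fell in 3D and 22 did not pass, with a median of 0.04. BHLHE40, a repressor also induced by low oxygen, rose by 1.96 ± 0.18 and read 720 and 981 in 3D and 184 and 254 in 2D. NR4A2, an orphan nuclear receptor gene, rose by 1.38 ± 0.21 and CSRNP1 by 0.99 ± 0.24. CCN1, a matricellular protein gene that serum response factor and YAP control, fell by 1.09 ± 0.24, with 218 and 227 in 3D and 719 and 309 in 2D. Its other probe set differed by -0.65 and did not pass in the fit on probe sets. Outside the naming rule, and chosen after their values were seen, KLF6 rose by 0.77, ZFP36L2 fell by 0.84 and HBEGF, a ligand of the EGF receptor, fell by 0.80. None of the 29 passed between the lines.

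Upstream, 21 of 27 listed kinases and factors were tested, 1 rose, 1 fell and 19 did not pass for the culture, with a median of -0.05. MAPK3, which encodes ERK1, rose by 1.20 ± 0.23 and read 294 and 376 in 3D and 155 and 136 in 2D. RPS6KA4, which encodes the nuclear kinase MSK2, fell by 0.86 ± 0.20 and read 244 and 436 in 3D, against 604 and 579 in 2D, in the ARHGAP8 and vector lines; its log2 ratios were -1.31 and -0.41 in that order of lines. None of 8 tested cofactor and degradation genes passed for the culture or between the lines; COP1, a ubiquitin ligase gene for JUN, was at -0.63, COPS5, known as a JUN coactivator, at -0.45, and DET1, which acts with COP1, at 0.51.

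Of 24 genes known as AP-1 targets, 17 were tested, 0 rose and 2 fell in 3D and 15 did not pass in limma, with a median of 0.08. CCND1, the cyclin D1 gene, fell by 1.17 ± 0.25 and read 299 and 486 in 3D and 1205 and 611 in 2D. Its other probe set differed by -0.57 and did not pass in the fit on probe sets. HMGA2, a chromatin architectural gene, fell by 0.78 ± 0.23 (adjusted p 0.0418 in limma) on its brightest probe set, and its other tested probe sets differed by -0.62, 0.04, 0.13 and 0.18. The HMGA2 call was lost after quantile or cyclic loess normalization, without an intensity trend and in the fit on probe sets. Between the lines 1 of the 17 passed. CXCL8, a chemokine gene, rose in the ARHGAP8 line by 1.15 ± 0.19 (adjusted p 0.00859 in limma). Its signals were 631 against 253 in 3D and 532 against 269 in 2D. Its other probe set read 0.43 on average and did not pass, with opposite line ratios of -0.35 in 3D and 1.20 in 2D. The CXCL8 call passed under 3 of the 10 alternatives that keep all arrays, with its direction kept in all of them. Among the losses were those after quantile or cyclic loess normalization, without an intensity trend and in the fit on probe sets.

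Of 14 heat shock genes listed, 10 were tested, 0 rose and 3 fell in 3D in limma and 7 did not pass, with a median of -0.24. BAG3 fell by 0.69 ± 0.16, HSPH1 by 0.65 ± 0.16 and DNAJA1 by 0.56 ± 0.16. None of the 10 passed between the lines.

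Every call named from the lists was lost with the mean of a gene's probe sets and kept its direction. In that setting the calls over all genes fell from 925 to 37 for the culture and from 17 to 0 for the plasmid. Fits without 1 array also left out the other factor, and their values kept the direction too. With the mean of probe sets BHLHE40 differed by 1.29, RPS6KA4 by -0.43, ZFP36L2 by -0.53, HMGA2 by -0.13 and HBEGF by -0.074. CSRNP1, MAPK3 and BAG3 have a single probe set, so that mean left their values as they were. Without the ARHGAP8 2D array the differences were -0.48 for CCN1, -0.68 for CCND1 and -0.37 for DNAJA1, and without the vector 2D array CCN1 was at -1.70 and CCND1 at -1.66. Without the ARHGAP8 3D array RPS6KA4 was at -0.44, and without the vector 3D array at -1.28.

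**Figure D4:**
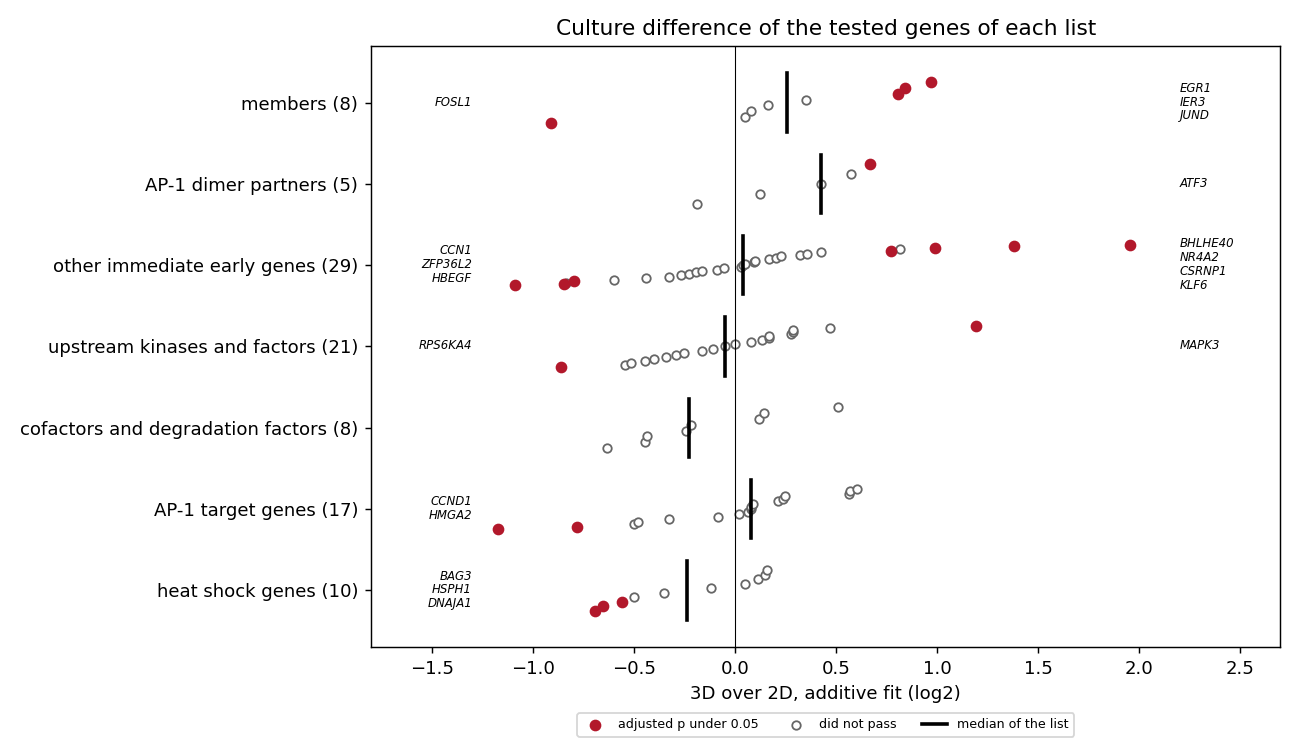
Log2 difference of 3D over 2D in the additive fit for each tested gene of the 10 members and of the 6 lists, with the number tested in brackets; filled points passed an adjusted p of 0.05 and are named at the side of their direction, and black bars are list medians. The medians run from -0.24 for heat shock genes to 0.43 for the AP-1 partners, with the members at 0.26.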

How the data were processed

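Total RNA from 4 M14 cultures went onto 1 Affymetrix array each, after poly(T)-primed reverse transcription and repeated linear amplification, per the labels' protocols. The values the authors deposited are probe set intensities on a linear scale. The submitters' processing notes name MAS5, with a version not given in the sources used here. Its 2% trimmed mean was 150.0 on each array. Control probe sets (62) were left out. Gene names came from the array's annotation table: 41091 probe sets carry 1 symbol, brought up to date by gene identifier for 41037 of them; 1801 carry several and 11721 none. A gene needed 2 arrays above the floor to be tested. Fits used limma 3.58.1 in R 4.3.3, two-sided, with an intensity trend in eBayes, and were tested on simulated data. Named from each list were genes past the threshold, at most 4 per list and term, or else the 3 largest culture differences. Members, lists and tests were chosen with earlier results of these data known. The number of arrays limits the precision.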

Additional observations from a re-analysis of the deposited data

Results flagged for a closer look

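FOSL1 had line ratios of opposite sign in 3D and 2D, with a difference of differences of -1.12, and so had JUNB, at -1.26; the difference was not tested. Opposite ratios were also read by other probe sets of the same family, at 1.12 for 205409_at of FOSL2, -1.67 for 201466_s_at of JUN and 1.31 for 229117_s_at of JUND, the last a bound because 2 of its arrays were at the floor. Of the listed genes, CCN1 had -1.28 and CCND1 -1.68, also not tested. The CCN1 ratio in 3D was only -0.06. The other probe set of each gene did not have opposite ratios. It read 0.25 in 3D and 0.70 in 2D for CCN1, and 0.17 and 0.42 for CCND1. Outside the genes compared, median signals of 626 for 18S and 1390 for 28S ribosomal RNA were read on the ARHGAP8 3D array, each above the other 3 arrays.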

How the results depend on the processing

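Of the 112 culture values of the 8 tested genes over 14 alternatives, 78 kept their direction and side of the threshold, 31 kept the direction and lost the call, and 3 changed direction; of 112 plasmid values, 103 and 9 did so, with 0 calls made. Of 252 culture values of listed genes, 122 kept direction and side of the threshold and 130 kept the direction and lost the call. The count of 4 member calls for the culture became 2 without an intensity trend, and 0 with no filter, with the mean of probe sets, with the other factor left out, and in every one of the 4 leave-one-out fits (0 to 0). Over all genes, the 925 culture calls became 556 after quantile normalization, 425 without a trend, 37 with the mean of probe sets, 29 with the other factor left out, 0 with no filter (1876 genes at an unadjusted p under 0.05) and 0 in each leave-one-out fit (828 to 2816 genes). The 17 plasmid calls became 61 when a gene had to clear the floor on every array, 10 with the lower floor, 1 without a trend, and 0 after quantile (992 genes at an unadjusted p under 0.05) or cyclic loess normalization (1058), with no filter (749), the mean of probe sets (893), a fit on probe sets (2024 of 28651 probe sets) or the other factor left out (283), and in each leave-one-out fit (110 to 620); the causes were not tested. With the mean of probe sets the plasmid values of FOSL2, JUN and JUND were -0.012, 0.051 and 0.049. Each leave-one-out fit also left out the other factor, so its values reflect both changes. In these fits the plasmid value ran from 0.030 to 1.28 for EGR1, -0.80 to -0.086 for JUNB and -0.63 to 0.84 for FOSL1. It ran from -0.19 to 0.32 for FOSL2, -0.14 to 0.82 for IER3 and -0.92 to 0.21 for JUND. The culture value ran from -0.064 to 0.39 for JUN and -0.45 to 0.62 for JUNB. No paired analysis was possible because the labels give no replicate numbers and each group has 1 array; the additive fit itself compares the cultures within each line. FOS and FOSB lay too close to or below the floor for a fold in most comparisons.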
